A study of Homo sapiens with 10 samples.

Results

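Semaphorins are guidance ligands, secreted or held in the membrane, that act on plexin receptors at the cell surface. Class 3 semaphorins are secreted, and most of them bind a neuropilin, which passes the signal on to a plexin. Plexins act on small GTPases of the Ras family and on the actin cytoskeleton and on integrin adhesion. They carry the same sema domain as MET, the receptor of hepatocyte growth factor (HGF), and the plexin-B receptors can associate with MET on the cell surface. Measured here were 10 genes of this system in MDA-MB-435, an established human melanoma cell line. They were the ligands SEMA3A, SEMA3B, SEMA3C, SEMA3F and SEMA6A, the receptors PLXNB1, PLXNB2 and PLXNC1, and the co-receptors NRP1 and NRP2. The genes were chosen by name, as all probe sets whose only gene symbol in the platform annotation was 1 of the 10. This gave 24 probe sets, out of 22215 probe sets other than controls, and 10 of the 11963 genes that have a probe set with a single symbol.

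RNA was measured on 10 Affymetrix arrays in 5 groups of 2. The groups were cells transduced with ITGB4 (integrin beta 4), untreated cells, and cells given HGF for 1, 6 or 24 h. The groups share the cell line and standard growth conditions. No vehicle was named for the untreated cells. The word Mock also stands in the sample descriptions of the transduced cells, no mock-transduced group was analysed here, and an effect of transduction and one of ITGB4 cannot be told apart. Per the study, a group's 2 arrays are biological duplicates. The authors' values came from RMA and are on a log2 scale, on which a difference of 1 is a doubling of the signal. They are not comparable between probe sets, so each is compared only with itself across arrays.

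A probe set was tested when its second-highest value over the 10 arrays was at least 7.31, which kept 45.6% of all probe sets. Of the 24 probe sets of semaphorins, plexins and neuropilins, 10 were kept, and these stand for 6 genes. They were 1 of 2 for SEMA3C, 2 of 3 for SEMA3F, 1 of 2 each for SEMA6A, PLXNB1 and PLXNB2, and 4 of 5 for NRP2. SEMA3A, SEMA3B, PLXNC1 and NRP1 had none. Where a group mean lies under 7.31, a difference is inexact in size. A probe set was called higher or lower at a limma adjusted p under 0.05, adjusted over all kept probe sets of a comparison. "Rose" and "fell" are used only of such calls. With 2 arrays in a group, the smallest two-sided p of an exact test on 1 probe set would be 0.333.

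The checks of the whole series were as follows. On the 3 kept probe sets of ITGB4 the transduced arrays lay between 10.29 and 13.23, and the other 8 arrays between 4.65 and 6.86, so the labels of the transduced cells and their ITGB4 signal go together. Of 9 melanocyte markers on the array 8 were kept, with array medians of 11.18 to 11.57, while 3 of 10 epithelial and 3 of 10 fibroblast markers were kept. Along the first principal component (41.8% of the variance) the transduced arrays stood apart from each other, at -22.47 and -0.51, while the untreated arrays lay at -4.95 and -5.62. The HGF arrays lay at 26.12 and 15.83 at 1 h, -17.76 and -17.85 at 6 h, and 10.94 and 16.27 at 24 h. Within a group, the SD over probe sets of the array-to-array difference ran from 0.18 at 6 h to 0.28 in transduced cells.

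Promoter windows are shown for SEMA3C, PLXNB1 and PLXNB2, the genes that were called in at least 1 comparison. RefSeq on GRCh38.p14 gave windows for 7 of the 10 genes, 16 windows in all. SEMA3A, SEMA6A and NRP1 had none. Each window holds the 250 bases before a transcript start, written 5′ to 3′ on the strand of the gene, and all 5 of those shown lie on the minus strand. SEMA3C, which spans chr7:80742538-80922389, has an upstream window at chr7:80922390-80922639 and an inner one at chr7:80919052-80919301. PLXNB1, at chr3:48403854-48430310, has an outer window at chr3:48430087-48430336, most of which lies inside the gene, and an inner one at chr3:48429345-48429594. PLXNB2, at chr22:50274979-50307646, has one at chr22:50301670-50301919. Capitals mark the GC box GGGCGG on either strand, a motif of the Sp family of transcription factors.
SEMA3C upstream window: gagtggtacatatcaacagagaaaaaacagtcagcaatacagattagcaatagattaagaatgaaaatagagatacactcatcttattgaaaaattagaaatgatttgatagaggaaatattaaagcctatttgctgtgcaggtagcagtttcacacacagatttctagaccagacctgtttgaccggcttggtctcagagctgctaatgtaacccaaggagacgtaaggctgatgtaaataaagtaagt
SEMA3C inner window: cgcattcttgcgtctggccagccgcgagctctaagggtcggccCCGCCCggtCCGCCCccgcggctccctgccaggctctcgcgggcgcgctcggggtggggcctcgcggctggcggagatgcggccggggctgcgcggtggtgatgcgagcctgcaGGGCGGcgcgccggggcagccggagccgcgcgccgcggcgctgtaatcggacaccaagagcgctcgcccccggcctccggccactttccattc
PLXNB1 outer window: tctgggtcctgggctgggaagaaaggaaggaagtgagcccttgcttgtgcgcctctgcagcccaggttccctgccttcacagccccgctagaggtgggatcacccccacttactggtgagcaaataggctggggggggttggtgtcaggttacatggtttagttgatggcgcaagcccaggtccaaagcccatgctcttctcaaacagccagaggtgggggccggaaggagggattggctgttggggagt
PLXNB1 inner window: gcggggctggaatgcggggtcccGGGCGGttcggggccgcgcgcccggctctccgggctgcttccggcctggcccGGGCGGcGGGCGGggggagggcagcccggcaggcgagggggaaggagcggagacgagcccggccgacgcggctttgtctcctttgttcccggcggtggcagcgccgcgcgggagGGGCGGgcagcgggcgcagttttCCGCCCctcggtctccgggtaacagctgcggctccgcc
PLXNB2 window: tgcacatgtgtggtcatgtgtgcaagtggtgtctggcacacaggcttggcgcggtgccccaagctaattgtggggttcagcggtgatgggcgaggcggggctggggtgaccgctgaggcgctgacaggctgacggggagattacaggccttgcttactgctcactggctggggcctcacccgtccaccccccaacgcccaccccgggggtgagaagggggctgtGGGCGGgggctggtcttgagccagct

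The GC box was found 3 times in the inner window of SEMA3C, 5 times in the inner window of PLXNB1 and 1 time in the window of PLXNB2, and 0 times in the upstream window of SEMA3C and the outer window of PLXNB1. Counting all windows of the 7 genes it was in 11 of 16, against 42.6% of all 35116 RefSeq promoter windows of the same length. Some genes have several windows, so the 16 are not independent. The SEMA3B windows at chr3:50272869-50273118 and chr3:50272899-50273148 overlap. The base composition of the 2 SEMA3C windows differed, with 36.4% G and C in the upstream window and 77.6% in the inner one. The AP-1 site TGANTCA, where N is any base, was in 1 of 16 windows (PLXNC1) and in 6.57% of all windows. The cyclic AMP response element TGACGTCA was in 1 of 16 (SEMA3B) and in 1.65% of all. The E-box CACGTG was in 0 of 16 and in 6.34% of all. Each motif was searched on both strands, and a match is a description of the letters only.

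**Figure D1:**
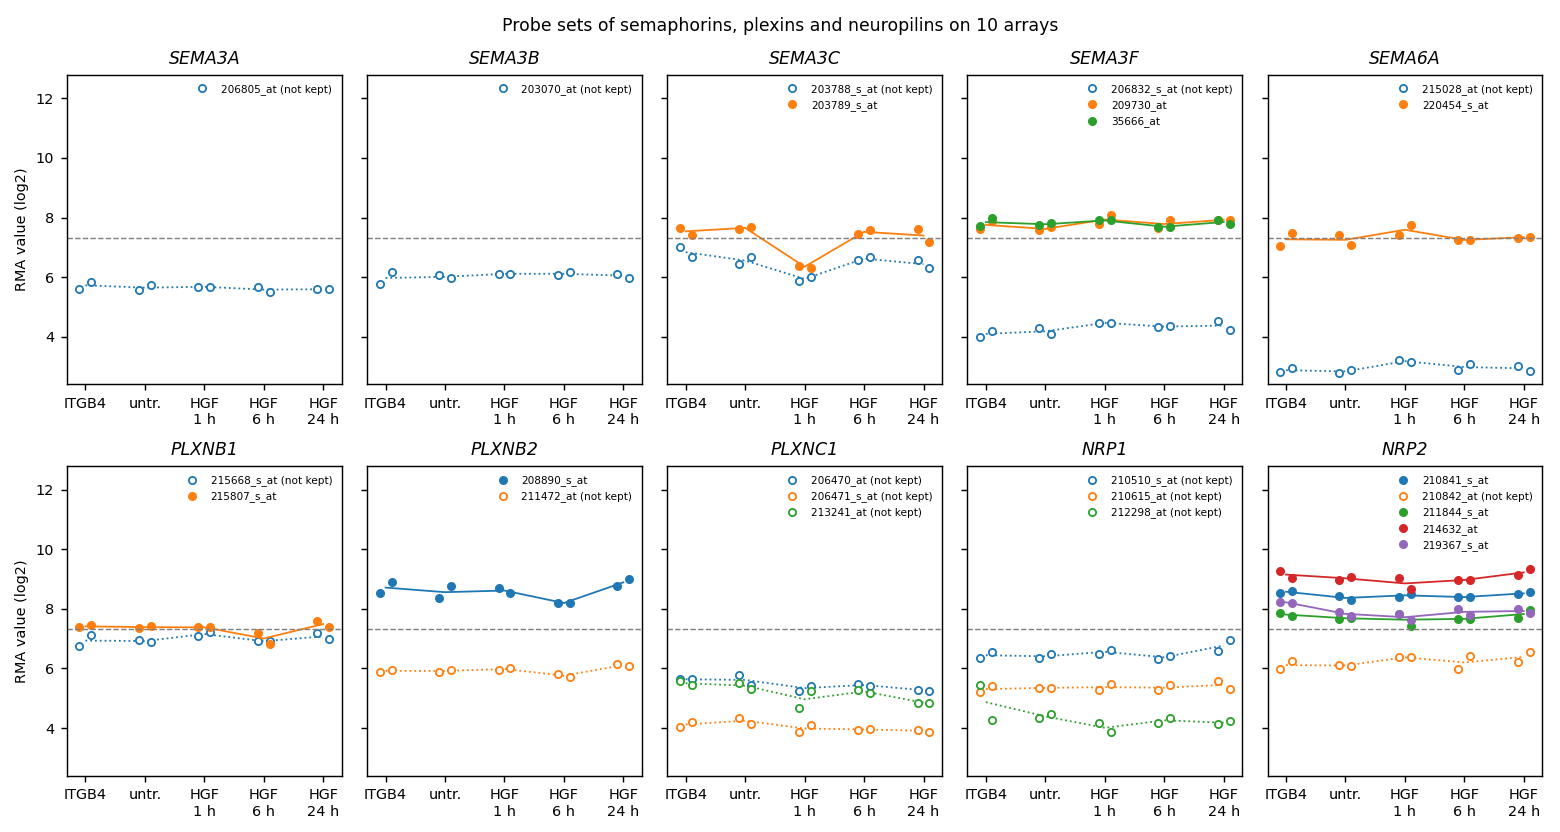
RMA values (log2, vertical axis) of the 24 probe sets of the 10 genes in the 5 groups of 2 arrays (ITGB4, transduced cells; untr., untreated cells; then 1, 6 and 24 h of HGF). Points are single arrays and lines join group means, filled points and full lines are kept probe sets, open points and dotted lines are probe sets that were not kept, and the dashed line is the lowest second-highest value kept, 7.31. Both SEMA3C probe sets have their lowest arrays at 1 h, at 6.31 to 6.38 and at 5.88 to 6.00.

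SEMA3C was the ligand with a called difference. It encodes a secreted class 3 semaphorin that signals through neuropilins and plexins. It fell after 1 h of HGF to a mean of 6.35 ± 0.05, against 7.65 ± 0.06 in untreated cells (SD, n = 2 arrays each), and at 6 h it rose above the 1 h level, with a mean of 7.52 ± 0.10. On the kept probe set 203789_s_at the values were 6.38 and 6.31 in the 1 h arrays. They were 7.61 and 7.70 in the untreated arrays and 7.66 and 7.41 in the transduced arrays. At 6 h they were 7.45 and 7.59, and at 24 h 7.61 and 7.18. Both 1 h arrays were thus below every other array. The log2 difference of 1 h against untreated cells was -1.31 (standard error 0.16, 95% interval -1.65 to -0.96, limma adjusted p = 0.0082), a 2.47-fold lower signal. The 1 h mean lay under 7.31, so the size of this fall is not exact.

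Of the 10 kept probe sets this was the 1 call after 1 h, 0 higher and 1 lower, where 5.67% of all kept probe sets were called and 5.08% were called lower. With 10 probe sets, 1 call is near this background. The 1 h arrays, at 26.12 and 15.83 on the first principal component, lay with the 24 h arrays at the high end, and the part of this in the result was not tested. The median of the 10 differences was 0.02, against 0.06 over all kept probe sets. The call was lost without untreated replicate 1 (adjusted p = 0.056), untreated replicate 2 (0.112) or HGF 1 h replicate 1 (0.0623), while the difference stayed between -1.35 and -1.27 with any 1 array left out. It was also lost without moderation of the variances (adjusted p = 0.102).

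Between HGF time points SEMA3C was 1.17 higher at 6 h than at 1 h on the log2 scale (standard error 0.16, limma adjusted p = 0.00273, 2.25-fold), with both 6 h arrays above both 1 h arrays. It was the 1 call among the 10 kept probe sets, 1 higher and 0 lower, where 18.3% of all kept probe sets were called and 11.9% were called higher, so the share called was not above the background. This call was kept with each of the 10 arrays left out, at adjusted p values of 0.000916 to 0.0371. It was lost without moderation (0.0505). At 24 h against 1 h the difference was 1.05 (95% interval 0.71 to 1.39), with an adjusted p of 0.0609 that missed the threshold. Over all kept probe sets 0.00986% were called in that comparison, and 0 of the 10 were. The difference was called with either transduced array left out (adjusted p = 0.0363) and not with any other array left out (0.0509 to 0.683). At 6 and 24 h SEMA3C differed from untreated cells by -0.13 (95% interval -0.48 to 0.21) and -0.26 (-0.60 to 0.09), and was called at neither time.

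The second SEMA3C probe set, 203788_s_at, was not kept, since 0 of its 10 values reached 7.31. Its values were 5.88 and 6.00 at 1 h, against 6.44 and 6.68 in untreated cells. At 6 h they were 6.58 and 6.66, at 24 h 6.56 and 6.31, and in the transduced cells 7.01 and 6.67. The 1 h arrays were the lowest on this probe set as well. In the fit without a filter it was 0.62 lower at 1 h than in untreated cells (difference -0.62, adjusted p = 0.0397) and 0.68 higher at 6 h than at 1 h (0.0131), both past the threshold. The 2 probe sets of a gene are read from the same arrays and are not independent samples.

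**Figure D2:**
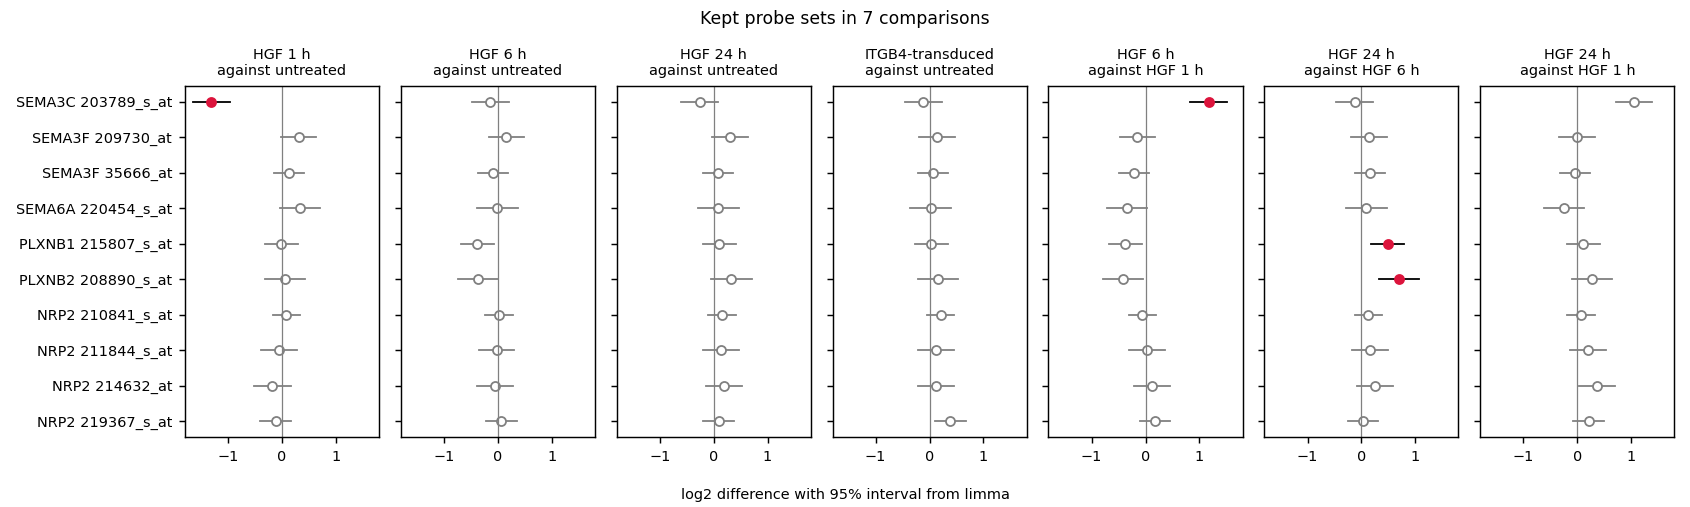
Log2 differences (horizontal axis) of the 10 kept probe sets in the 7 comparisons, each named above its panel with the group on top first. Points are limma estimates with 95% intervals, red where the adjusted p was under 0.05. SEMA3C is called at 1 h against untreated and at 6 h against 1 h, and PLXNB1 and PLXNB2 at 24 h against 6 h.

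The other ligands had no call in any of the 7 comparisons. SEMA3F, a class 3 semaphorin that binds NRP2, had 2 kept probe sets, and all 10 arrays of each reached 7.31. On 209730_at the values were 7.77 and 8.09 at 1 h, against 7.57 and 7.67 in untreated cells. Both 1 h arrays lay above both untreated arrays, and the difference of 0.31 had a 95% interval of -0.02 to 0.64 (adjusted p = 0.212). At 24 h it was 0.30 (-0.03 to 0.63). On 35666_at, the other kept probe set of SEMA3F, the same differences were 0.13 and 0.08. The third, 206832_s_at, stayed between 4.00 and 4.53 and was not kept.

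SEMA6A is a membrane-bound semaphorin that binds plexin-A receptors. On its kept probe set 220454_s_at the values were 7.43 and 7.75 at 1 h, against 7.41 and 7.09 in untreated cells. At 6 h they were 7.26 and 7.24, at 24 h 7.32 and 7.36, and in transduced cells 7.05 and 7.49. The groups lay close together, since the 5 group means spanned 0.34 and the pooled SD within groups was 0.20. The difference at 1 h was 0.34 (95% interval -0.04 to 0.72, adjusted p = 0.234). The second probe set, 215028_at, lay between 2.80 and 3.22. SEMA3A, a class 3 semaphorin that binds NRP1, lay between 5.50 and 5.84 on all arrays, and its group means spanned 0.14. SEMA3B, another class 3 semaphorin, lay between 5.76 and 6.18, with group means that spanned 0.14. Neither reached 7.31 on any array. A further probe set annotated to both SEMA3B and MIR6872 was left out by the rule of a single symbol and lay between 6.08 and 6.44.

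Of the receptors, PLXNB1 and PLXNB2 rose between 6 and 24 h of HGF. PLXNB1 is the receptor of SEMA4D, and PLXNB2 a related receptor of class 4 semaphorins. PLXNB1 averaged 7.49 ± 0.12 at 24 h and 7.00 ± 0.26 at 6 h (SD, n = 2 arrays each), and PLXNB2 averaged 8.89 ± 0.17 at 24 h and 8.19 ± 0.02 at 6 h. On the kept probe set of each gene the 6 h mean was the lowest of the 5 groups and the 24 h mean the highest. On 208890_s_at of PLXNB2 the values were 8.77 and 9.01 at 24 h, against 8.21 and 8.18 at 6 h. At 1 h they were 8.68 and 8.54, in untreated cells 8.36 and 8.75, and in transduced cells 8.52 and 8.91. Both 6 h arrays were below all other arrays. The log2 difference of 24 h against 6 h was 0.69 (standard error 0.17, 95% interval 0.32 to 1.07, limma adjusted p = 0.0176), a 1.62-fold higher signal.

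On 215807_s_at of PLXNB1 the values were 7.58 and 7.40 at 24 h, against 7.19 and 6.82 at 6 h. They were 7.38 and 7.38 at 1 h, 7.35 and 7.42 in untreated cells, and 7.37 and 7.45 in transduced cells. Here too the 6 h arrays were the lowest, and of the 2 replicate 2 was the lower. The difference of 24 h against 6 h was 0.49 (standard error 0.14, 95% interval 0.18 to 0.79, limma adjusted p = 0.0328), a 1.40-fold higher signal, and the 6 h mean lay under 7.31.

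These were the 2 calls among the 10 kept probe sets in this comparison, 2 higher and 0 lower, where 19.5% of all kept probe sets were called and 6.96% were called higher. The share called in either direction was near the background. Of the 10, 9 had a positive difference, and in 8 both 24 h arrays lay above both 6 h arrays, which held for 30.2% of all kept probe sets. The median of the 10 differences was 0.15, against -0.01 over all kept probe sets. The probe sets of a gene share their arrays, so these counts rest on 6 genes. On the first principal component the 24 h arrays were at 10.94 and 16.27 and the 6 h arrays at -17.76 and -17.85, and the part of that separation in the result was not tested.

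Both differences stayed positive with each array left out. That of PLXNB2 was 0.71 without HGF 6 h replicate 1 and 0.68 without replicate 2, and that of PLXNB1 stayed at 0.49 without either untreated replicate. Both calls, though, were lost with some arrays left out. That of PLXNB2 was lost without HGF 6 h replicate 1 (adjusted p = 0.0824), HGF 6 h replicate 2 (0.106) or HGF 24 h replicate 2 (0.0936), with differences between 0.57 and 0.82 over all 10 left-out arrays. That of PLXNB1 was lost without HGF 6 h replicate 2, where the difference was 0.30 (adjusted p = 0.286), and without HGF 24 h replicate 1 (0.156), HGF 24 h replicate 2 (0.0512), or either untreated replicate (0.053).

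At 6 h against untreated cells neither receptor was called. The difference was -0.38 (95% interval -0.69 to -0.07, adjusted p = 0.125) for PLXNB1 and -0.36 (-0.74 to 0.01, adjusted p = 0.224) for PLXNB2. At 6 h against 1 h it was -0.37 (adjusted p = 0.0822) and -0.42 (0.106), with both 6 h arrays below both 1 h arrays in each gene. At 24 h against untreated cells it was 0.10 (95% interval -0.20 to 0.41) for PLXNB1 and 0.33 (-0.04 to 0.70) for PLXNB2. Over all kept probe sets 6.22% were called at 6 h against untreated cells and 0% at 24 h, and 0 of the 10 at either time. At an unadjusted p under 0.05 there were 1 of the 10 at 6 h and 0 at 24 h, against 23.3% and 11.2% of all kept probe sets.

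Both plexins had a second probe set that was not kept. On 211472_at of PLXNB2 the values were 6.15 and 6.07 at 24 h, against 5.82 and 5.70 at 6 h, and the difference of 0.35 missed the threshold in the fit without a filter (adjusted p = 0.0948). The 6 h mean was again the lowest of the 5 groups and the 24 h mean the highest. On 215668_s_at of PLXNB1 they were 7.18 and 6.97 at 24 h, against 6.92 and 6.90 at 6 h, with the highest mean at 1 h. Here the difference of 24 h against 6 h was 0.16 and was not called without a filter (limma adjusted p = 0.583). The 6 h mean of 6.91 was close to the untreated mean of 6.92.

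**Figure D3:**
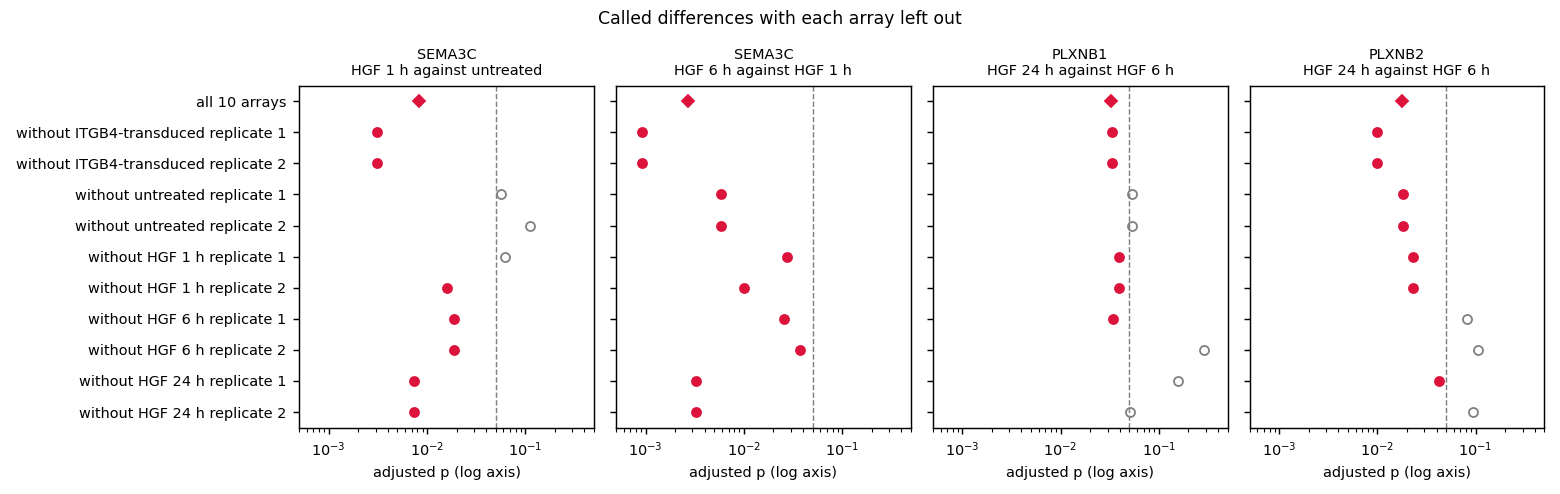
Limma adjusted p (horizontal log axis) of the 4 called differences, with all 10 arrays (diamond) and with each array left out in turn (circles). Red marks an adjusted p under 0.05 and the dashed line the threshold. SEMA3C at 6 h against 1 h stays under it with every left-out array, up to 0.0371, and each of the other 3 crosses it with at least 3 of them.

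PLXNC1, the receptor of SEMA7A, had 3 probe sets, none of which reached 7.31 on any array. All 3 had their lowest mean at 24 h. On 213241_at the values were 4.85 and 4.86 at 24 h, against 5.53 and 5.32 in untreated cells. Both 24 h arrays were below both untreated arrays, by a difference of -0.57 that was not called in the fit without a filter (adjusted p = 0.394). On 206470_at the same difference was -0.35 (0.544) and on 206471_s_at -0.34 (0.539). The 1 h arrays of 213241_at lay apart, at 4.67 and 5.25.

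Of the co-receptors, NRP2 had 4 kept probe sets and no call in any of the 7 comparisons. Neuropilins have short cytoplasmic tails and also bind vascular endothelial growth factors, NRP1 foremost VEGFA and NRP2 foremost VEGFC. The largest difference of NRP2 from untreated cells on a kept probe set was that of 219367_s_at in transduced cells, with values of 8.25 and 8.19, against 7.89 and 7.77 in untreated cells. They were 7.81 and 7.63 at 1 h, 8.01 and 7.79 at 6 h, and 8.00 and 7.85 at 24 h. Both transduced arrays lay above all other arrays. The difference was 0.39 (standard error 0.13, 95% interval 0.10 to 0.67) and was not called (limma adjusted p = 0.616). On the other 3 kept probe sets of NRP2 it was 0.21, 0.12 and 0.12, with transduced arrays above both untreated arrays in 2 of the 3. Over all kept probe sets 0.0493% were called in transduced cells, and 0 of the 10 were, with 1 of the 10 and 6.09% of all at an unadjusted p under 0.05. Of the 10 differences 9 were positive, and 4 of the 10 probe sets are of NRP2. The median of the 10 was 0.12, against -0.0007 over all kept probe sets. In 3 of the 10, all of NRP2, both transduced arrays lay above both untreated arrays, which held for 17% of all kept probe sets.

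The order of the NRP2 group means differed between probe sets. The highest mean was that of transduced cells on 210841_s_at and 219367_s_at, and that of 24 h on 211844_s_at and 214632_at. Group means spanned 0.19 to 0.50 and pooled SDs within groups were 0.07 to 0.16. On 214632_at the difference of 24 h against 1 h was 0.37 (95% interval 0.03 to 0.70, adjusted p = 0.298), with 9.13 and 9.32 at 24 h, against 9.05 and 8.66 at 1 h. The fifth probe set of NRP2, 210842_at, lay between 5.99 and 6.54.

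NRP1 was not kept on any of its 3 probe sets. On 210510_s_at the values were 6.57 and 6.96 at 24 h, against 6.34 and 6.48 in untreated cells, a difference of 0.36 (adjusted p = 0.553 without a filter). On 212298_at transduced replicate 1 was at 5.46 and replicate 2 at 4.28, and the other 8 arrays were at 3.86 to 4.46, so this probe set separated 1 transduced array from all others. On 210615_at all arrays lay between 5.22 and 5.57.

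Beyond the 10 genes, 21 other semaphorins and plexins were looked up, of which 18 were on the array and 8 were kept, with 12 probe sets. None of the 12 was called in any of the 7 comparisons by limma, where 0% to 19.5% of all kept probe sets were. At an unadjusted p under 0.05 there were 1 at 1 h, 4 at 6 h, 1 at 24 h and 0 in transduced cells against untreated cells, where the shares of all kept probe sets were 26.6%, 23.3%, 11.2% and 6.09%. There were 2 at 6 h against 1 h (35.2% of all), 2 at 24 h against 6 h (34.1%) and 0 at 24 h against 1 h (14.7%). Their median differences lay between -0.11 and 0.13.

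Of 55 co-receptors, ligands and signalling partners, 49 were on the array and 36 were kept, with 55 probe sets. After 1 h of HGF, against untreated cells, 0 of the 55 were called higher and 3 lower, which is near the 5.67% called and 5.08% called lower over all kept probe sets. The 3 were ROCK1, a kinase that acts on actomyosin (-0.80 on 213044_at, limma adjusted p = 0.0476), the integrin subunit ITGB1 (-0.53) and the GTPase RAP1A (-0.48), of which plexins are GTPase-activating proteins. The other kept probe set of ROCK1, 214578_s_at, had a difference of -0.77 at 1 h and was not called (limma adjusted p = 0.0684). At 6 h 0 were higher and 1 lower, where 6.22% of all kept probe sets were called. This was FYN, a Src family kinase of plexin signalling, on 1 of its probe sets (-0.70 on 210105_s_at, adjusted p = 0.0494). At 24 h and in transduced cells 0 were called, with 6 and 2 of the 55 at an unadjusted p under 0.05, against 11.2% and 6.09% of all kept probe sets. The list's medians lay at -0.01, -0.05, -0.04 and -0.02, against 0.06, 0.01, 0.00 and 0.00 over all kept probe sets.

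Between HGF time points more of the partners were called. At 6 h against 1 h 5 probe sets were higher and 5 lower. The higher ones were led by ROCK2 (1.38), RND3 (1.35), ROCK1 (0.75) and RRAS2 (0.63), and the lower ones were RRAS (-0.94), FARP2 (-0.66), FYN (-0.63 and -0.55 on 2 probe sets) and FARP1 (-0.46). ROCK2, ROCK1, RRAS2 and FARP1 also had other kept probe sets, which had the same direction and were not called. On the other kept probe set of ROCK2 the mean was 7.30 at 6 h, against 6.99 at 1 h. RRAS and RRAS2 are GTPases of the Ras family, and FARP1 and FARP2 are plexin-associated exchange factors. At 24 h against 6 h 3 were higher, RRAS (0.90) and FYN (0.79 and 0.75), and 4 lower, RND3 (-1.06), MET (-0.70), LIMK1 (-0.61), a kinase of cofilin, and RAP1B (-0.56). The means of ROCK2 and RRAS2 at 1 h and of LIMK1 at 24 h lay under 7.31. At 24 h against 1 h 0 were called, with 4 of 55 at an unadjusted p under 0.05, against 14.7% of all kept probe sets. The 10 of 55 at 6 h against 1 h and the 7 of 55 at 24 h against 6 h stand beside the 18.3% and 19.5% of all kept probe sets called there.

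RRAS, the Ras family GTPase on which plexin-B1 acts, had values of 8.86 and 8.70 at 24 h, against 7.97 and 7.79 at 6 h. They were 9.10 and 8.54 at 1 h, 8.69 and 8.38 in untreated cells and 8.25 and 8.55 in transduced cells. As with PLXNB1 and PLXNB2 both 6 h arrays were below all others. Among the called probe sets of partners this also held for FARP1, FARP2 and FYN. Over all kept probe sets 33.9% had both 6 h arrays below both 1 h arrays, and the share below all other arrays was not counted. A link between RRAS and the plexins was not tested. On 203510_at of MET the values were 8.01 and 7.51 at 24 h, against 8.52 and 8.41 at 6 h. In untreated cells they were 8.55 and 8.43, at 1 h 8.13 and 7.87, and in transduced cells 8.68 and 8.08. The call of MET (adjusted p = 0.0384) came from 1 of 3 kept probe sets.

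Each of these 21 called differences of partners was lost with at least 1 array left out, and none changed its sign. They lost between 1 (RND3 at 6 h against 1 h, without HGF 6 h replicate 2, adjusted p = 0.0575) and 7 of the 10 left-out arrays (FARP1 at 6 h against 1 h). The comparisons that share a group share its arrays and are not independent.

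**Figure D4:**
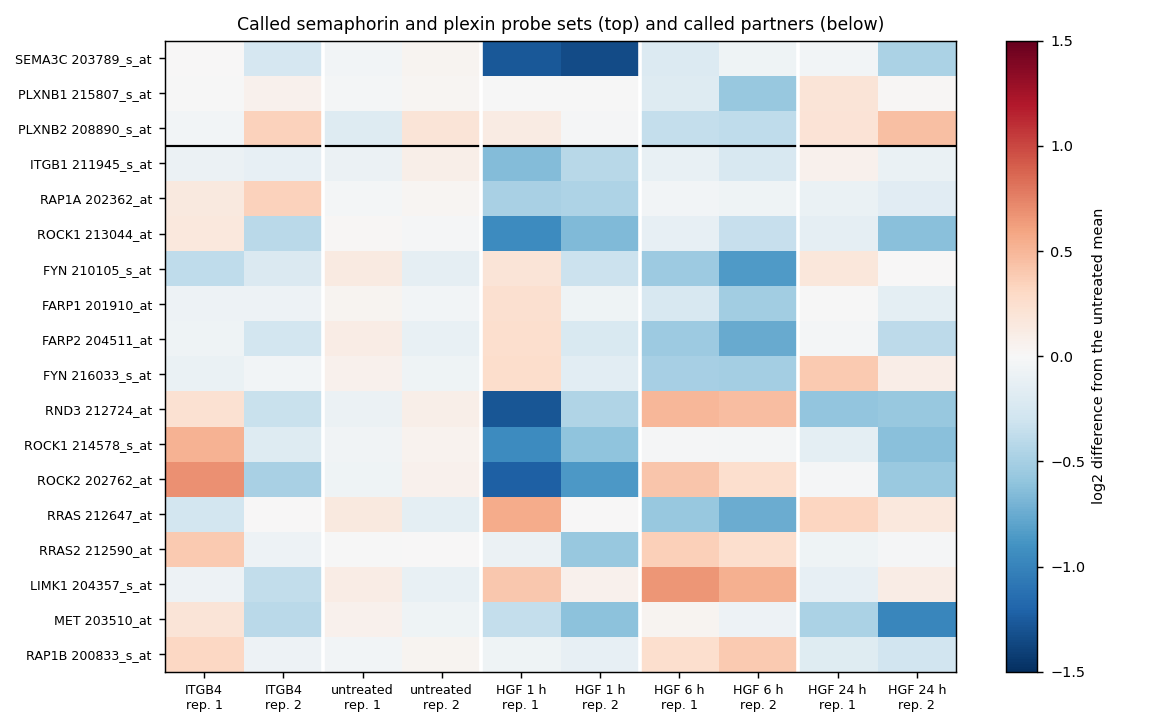
Log2 difference of each array (columns, 2 replicates of 5 groups) from the untreated mean, in colour, for the 3 called probe sets of SEMA3C, PLXNB1 and PLXNB2 (above the black line) and all called probe sets of their partners (below it). Blue is lower and red higher than the untreated mean. The 1 h arrays are the darkest blue for SEMA3C, with a mean difference of -1.31. The 6 h arrays are the lowest for PLXNB1, PLXNB2, FYN, FARP1, FARP2 and RRAS.

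The genes whose pattern lay closest to SEMA3C and PLXNB2 were found by the root mean square distance between the profiles over 10 arrays, after each probe set was centred on its own mean. SEMA3C was closest to ARID4B (0.14), SNX4 (0.154) and LAMTOR3 (0.154), where the median over all kept probe sets was 0.543. The 1 h mean of ARID4B was 6.42, against 7.75 in untreated cells. PLXNB2 was closest to ING4 (0.0814), TAF6 (0.0818) and SAT1 (0.0897), with a median of 0.319 over all kept probe sets. The mean of ING4 was 8.30 at 24 h and 7.70 at 6 h.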

How the data were processed

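RNA of 10 samples of MDA-MB-435 cells was hybridised to Affymetrix hgu133a arrays. What the authors deposited is a log2 value per probe set and array, made by RMA. The affy package is also named among their tools. The versions are not given in the sources used here. The authors' presence calls were not used. In their place, as many probe sets as the paper kept were taken by their second-highest value (7.31 or more). Groups came from the sample titles. Genes were named from the platform annotation.

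In R 4.3.3 with limma 3.58.1, the linear model had 1 mean for each group over all 10 arrays (5 residual degrees of freedom, prior 5.92 with an SD of 0.144), and p-values were adjusted by Benjamini and Hochberg over kept probe sets within each of 7 comparisons. The fit was tested on simulated data. The 10 genes, both lists of other genes and the markers were chosen with earlier results of these data known. Named were all 10 genes, and at most 4 called genes of a list each way. The 3 nearest profiles were named for the 2 genes whose kept probe sets had the largest range of group means. Alternatives were 2 other filters, 2 normalisations, the replicate number as a block, other variance settings, adjustment over comparisons, a fold of 1.5 and each array left out. The alternatives for the lists of other genes were added after seeing the data. Promoters were RefSeq sequences on GRCh38.p14.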

Additional observations from a re-analysis of the deposited data

Results flagged for a closer look

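In 3 differences between HGF time points, the effects of 2 times against the same untreated cells differed by limma's test of that difference, adjusted over all kept probe sets. SEMA3C was 1.17 higher at 6 h than at 1 h, PLXNB2 was 0.69 higher at 24 h than at 6 h, and PLXNB1 was 0.49 higher at 24 h than at 6 h, each on the log2 scale. All 3 kept their direction with every array left out. The call of SEMA3C was kept with each, and those of PLXNB2 and PLXNB1 were lost with 3 and 5 of the 10 left-out arrays.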

How the results depend on the processing

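The 4 called differences kept their direction under all alternatives in which the probe set was tested, and their calls under median centring, cyclic loess, a trended and robust prior, and adjustment over comparisons. With the replicate number as a block the counts of called probe sets stayed at 1 at 1 h, 1 at 6 h against 1 h, 2 at 24 h against 6 h and 0 elsewhere. Same-numbered arrays deviated together in most of the 10 pairs of groups (correlations of -0.14 to 0.46, over 0.1 in 8). The highest was that of 6 h with 24 h. The main fit left the numbers out, and the block is the fit with them. After 1 h, 2 probe sets were called without a filter, 0 with a stricter filter, which dropped SEMA3C, 0 without moderation, and 0 to 1 with an array left out. At 6 h against 1 h it was 2 without a filter, 0 with the stricter filter, 2 with the spread of the compared groups and 0 without moderation. At 24 h against 6 h it was 1 with the stricter filter, 1 with the spread of the compared groups, 0 without moderation, 1 at a fold of at least 1.5, and 0 to 2 with an array left out. At 24 h against 1 h it was 1 without a filter, 1 with the spread of the compared groups, 1 with adjustment over comparisons together, and 0 to 1 with an array left out. SEMA3A, SEMA3B, PLXNC1 and NRP1 had no probe set that passed the cut at 7.31, and their differences rest on the fit without a filter. This cut ranks probe sets and is not a call of presence or absence.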
